A study of Rattus norvegicus with 12 samples.

Results

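Tgf-beta and activin are secreted growth factors, and the genes described here encode their ligands, their receptors and the proteins that hold or block them outside the cell. Their 10 genes were taken from the deposited count table, which lists 16511 genes by Entrez identifier, by matching the identifiers to rat gene symbols. They comprise 5 ligand genes (Tgfb1, Tgfb2, Tgfb3, Inhba and Inhbb), 2 receptor genes (Tgfbr1 and Tgfbr2), the co-receptor gene Tgfbr3, the latent complex gene Ltbp1 and the antagonist gene Fst.

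Tgf-beta is secreted in a latent form that Ltbp proteins tether to the extracellular matrix, and released ligand is bound by the type II receptor Tgfbr2, which then activates the type I receptor Tgfbr1 and, through it, the Smad transcription factors. Activins are dimers of inhibin beta chains, signal through a related set of receptors and are bound and blocked by follistatin. In the mammary gland Tgf-beta is known to restrain the growth and branching of the ducts, and Inhbb is known to be expressed in fat cells.

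RNA was sequenced from 12 snap-frozen mammary glands of rats at PND21, each from a different litter according to the series text, and the strain was taken to be Sprague-Dawley from the study's methods, although the expression work described there compared microdissected epithelia of HBF groups with and without bisphenol A, not the groups that the labels give. In the HBF group (6 libraries, HBF 1 to HBF 6) the dams had received a high-butterfat diet, and in the control group (6 libraries, control 7 to control 11 and control 14) the dams had received the AIN control diet. The labels name no other treatment of either group, and the sources differ on when the diets began and ended, beyond that gestation was covered. The question was whether the diet of the dam altered gene expression in the gland of the offspring.

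Total counts ranged from 2320267 to 2760871 per library in the HBF group and from 2403464 to 2944680 in the control group. Levels are given as CPM, which is counts scaled to library size and to edgeR's TMM factors. The smallest level taken as detectable, 3 counts, corresponded to between 0.945 and 1.30 CPM per library, and this limit covers counting error only. CPM does not account for transcript length, so the order of genes by mean CPM, used here to choose which markers and pathway genes are named, is not an order of transcript number.

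Before the diets are compared, 3 libraries have to be set apart. On the first principal component, which held 57.6% of the variance over 9382 genes, HBF 6 lay at 102, control 14 at 68.5 and HBF 5 at 28.5, and the other 9 libraries lay between -31.5 and -16.6. Genes of ribosomal proteins took 10.3% of the counts in HBF 6, 8.80% in control 14 and 7.09% in HBF 5, and between 4.25% and 5.88% in the other 9. Lymphoid markers (6 of 7 genes listed) summed to 880 CPM in HBF 6 and 799 CPM in control 14, but to 14.7 CPM in HBF 5. The same sum was 136 CPM in HBF 1, 65.7 CPM in HBF 2 and between 3.77 and 32.0 CPM in the remaining libraries. Cd79b, the lymphoid marker with the highest mean CPM, was at 261 CPM in HBF 6, 229 CPM in control 14 and 5.78 CPM in HBF 5. No counts fell on Cd3e and Cd3d in HBF 4 or on Cd3d and Ms4a1 in control 11.

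Markers of the other cell types of a gland were found in every library. Adipocyte markers (7 of 7 genes) summed to 17400 CPM in HBF 6, 14500 CPM in control 14 and 35100 CPM in HBF 5, and to between 30800 and 39100 CPM in the other 9 libraries, with Fabp4 at the highest mean CPM. Fabp4 was highest of all libraries in HBF 5, at 25200 CPM. The mean log2 CPM of the 7 adipocyte markers was 10.71 in HBF 5, below the 10.97 to 11.36 of the other 9 libraries. Epithelial markers (6 of 7 genes, highest mean CPM in Krt8) summed to 648, 627 and 600 CPM in HBF 6, control 14 and HBF 5, and ranged from 114 to 502 CPM in the others. For smooth muscle and myoepithelial markers (4 of 5 genes, highest mean CPM in Tagln) the sums were 1160, 1120 and 320 CPM, beside 131 to 387 CPM. Fibroblast markers (5 of 5 genes, highest mean CPM over the 12 libraries in Col3a1) summed to 19300 CPM in HBF 6, 18600 CPM in control 14 and 39700 CPM in HBF 5, beside 26300 to 43000 CPM. The endothelial sums (5 of 6 genes, Pecam1) were 478, 513 and 165 CPM, beside 167 to 269 CPM. Pecam1 alone was at 254 CPM in HBF 6 and 237 CPM in control 14. The mean log2 CPM of the 5 endothelial markers was 5.63 in HBF 6, inside the 5.05 to 5.75 of the other 9 libraries. It was 6.31 in control 14 and 4.76 in HBF 5. Macrophage markers (5 of 5 genes, Csf1r) came to 269, 181 and 335 CPM, beside 250 to 419 CPM, and skeletal muscle markers (7 of 7 genes, Acta1) to 7000, 1260 and 3070 CPM, beside 204 to 7100 CPM. In whole glands, fewer cells of a type and less RNA per cell cannot be told apart.

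The promoters of the 3 Tgf-beta receptor genes and of the 2 inhibin beta chain genes are shown because Tgfbr2 and Tgfbr3 were lowest in the same 3 libraries while Tgfbr1 was lowest in HBF 5 only, and because Inhbb was counted in every library and Inhba in none. Each sequence is from RefSeq (rat assembly GRCr8), covers 300 bases from 250 before to 50 after the annotated start, and is written 5′ to 3′ on the strand of the gene. Capitals mark matches on either strand to the GC box letters GGGCGG or the TATA box letters TATAAA, and overlapping matches run together. The locations are chr5:66449148-66449447 (plus strand) for Tgfbr1, chr8:124761420-124761719 (minus strand) for Tgfbr2, chr14:2634044-2634343 (plus strand) for Tgfbr3, chr17:53804459-53804758 (minus strand) for Inhba and chr13:33089324-33089623 (minus strand) for Inhbb.
Tgfbr1: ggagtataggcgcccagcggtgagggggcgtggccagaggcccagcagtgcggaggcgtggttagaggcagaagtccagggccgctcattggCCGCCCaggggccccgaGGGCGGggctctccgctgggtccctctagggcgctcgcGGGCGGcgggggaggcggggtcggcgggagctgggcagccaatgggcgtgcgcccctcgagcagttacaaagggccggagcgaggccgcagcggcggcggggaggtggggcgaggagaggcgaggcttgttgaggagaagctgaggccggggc
Tgfbr2: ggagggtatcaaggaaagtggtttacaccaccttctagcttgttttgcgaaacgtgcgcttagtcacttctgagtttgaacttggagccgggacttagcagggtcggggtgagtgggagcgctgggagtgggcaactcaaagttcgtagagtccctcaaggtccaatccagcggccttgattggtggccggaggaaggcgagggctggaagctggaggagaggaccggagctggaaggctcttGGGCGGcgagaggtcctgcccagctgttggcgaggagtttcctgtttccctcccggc
Tgfbr3: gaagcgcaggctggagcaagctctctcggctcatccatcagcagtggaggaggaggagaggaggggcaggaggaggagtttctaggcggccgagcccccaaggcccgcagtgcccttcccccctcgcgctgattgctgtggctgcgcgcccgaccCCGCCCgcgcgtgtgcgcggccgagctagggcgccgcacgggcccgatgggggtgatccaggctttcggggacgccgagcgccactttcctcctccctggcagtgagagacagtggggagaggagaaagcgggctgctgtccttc
Inhba: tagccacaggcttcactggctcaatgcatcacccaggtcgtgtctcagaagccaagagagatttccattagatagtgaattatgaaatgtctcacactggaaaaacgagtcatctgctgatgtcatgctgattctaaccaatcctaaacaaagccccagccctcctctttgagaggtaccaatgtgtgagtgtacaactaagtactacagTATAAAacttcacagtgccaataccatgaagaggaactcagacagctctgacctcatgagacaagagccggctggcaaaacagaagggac
Inhbb: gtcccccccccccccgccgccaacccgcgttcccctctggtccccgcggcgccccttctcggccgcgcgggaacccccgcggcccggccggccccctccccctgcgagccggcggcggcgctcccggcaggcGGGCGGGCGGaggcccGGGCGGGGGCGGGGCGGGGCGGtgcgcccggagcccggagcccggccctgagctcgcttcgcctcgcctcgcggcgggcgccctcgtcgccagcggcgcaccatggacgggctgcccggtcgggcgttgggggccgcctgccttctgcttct

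Promoter entries matched 9 of the 10 genes, all but Fst. Among 33469 rat promoters of the same length 33.1% held a GC box match and 14.2% a TATA box match. Tgfbr1 had 3 GC box matches, Tgfbr2 had 1, which began 7 bases before the start, and Tgfbr3 had 1, which began 95 bases before it. Inhbb had 6 GC box matches and a GC content of 84.3%, higher than or equal to that of 99.9% of the promoters, and Inhba had none, a GC content of 45.7% and 1 TATA box match. No GC box or TATA box match was found in the promoters of Tgfb1, Tgfb2, Tgfb3 and Ltbp1. These matches describe the letters in the window and were not tested for any role.

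Of the 10 genes, 9 passed the filter on low counts and were tested between the diets, and Inhba, with no counts, was not. No member had an adjusted p under 0.05 in the quasi-likelihood test of edgeR (Benjamini-Hochberg adjustment) (0 of 9), and the same held for 0% of all 9382 genes tested. At an unadjusted p under 0.05, 0 of 9 members and 2.34% of all genes (220 genes) passed. DESeq2 and limma-voom also gave 0 members at either threshold, with 271 and 613 genes of the whole table at the unadjusted one. The diet groups overlapped in every member, and they did not overlap in 0.107% of all genes tested. Without HBF 5, HBF 6 and control 14, 0 of 9 members passed either threshold in edgeR's test, beside 0% of 9480 genes at the adjusted and 5.37% at the unadjusted one. Of the 9 members, 8 had a negative and 1 a positive log2 fold change (HBF against control), with a median of -0.15, where 4688 of all 9382 genes were negative and 4694 positive, with a median of 0.000184. Without the 3 libraries, 6 members were negative and 3 positive, with a median of -0.194, beside 0.00861 over all genes. Members that vary together over the libraries are not independent in sign, and these counts were not tested. In the fit without the 3 libraries 3 of 6 epithelial markers, 2 of 4 smooth muscle and myoepithelial markers and 2 of 5 fibroblast markers had an unadjusted p under 0.05, all negative, and 0 of the 41 markers tested had an adjusted one, whereas with all 12 libraries 0 of 41 passed either threshold. Intervals given below are 95% intervals of the log2 fold change, and a p over the threshold does not show that the diets gave equal levels.

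**Figure D1:**
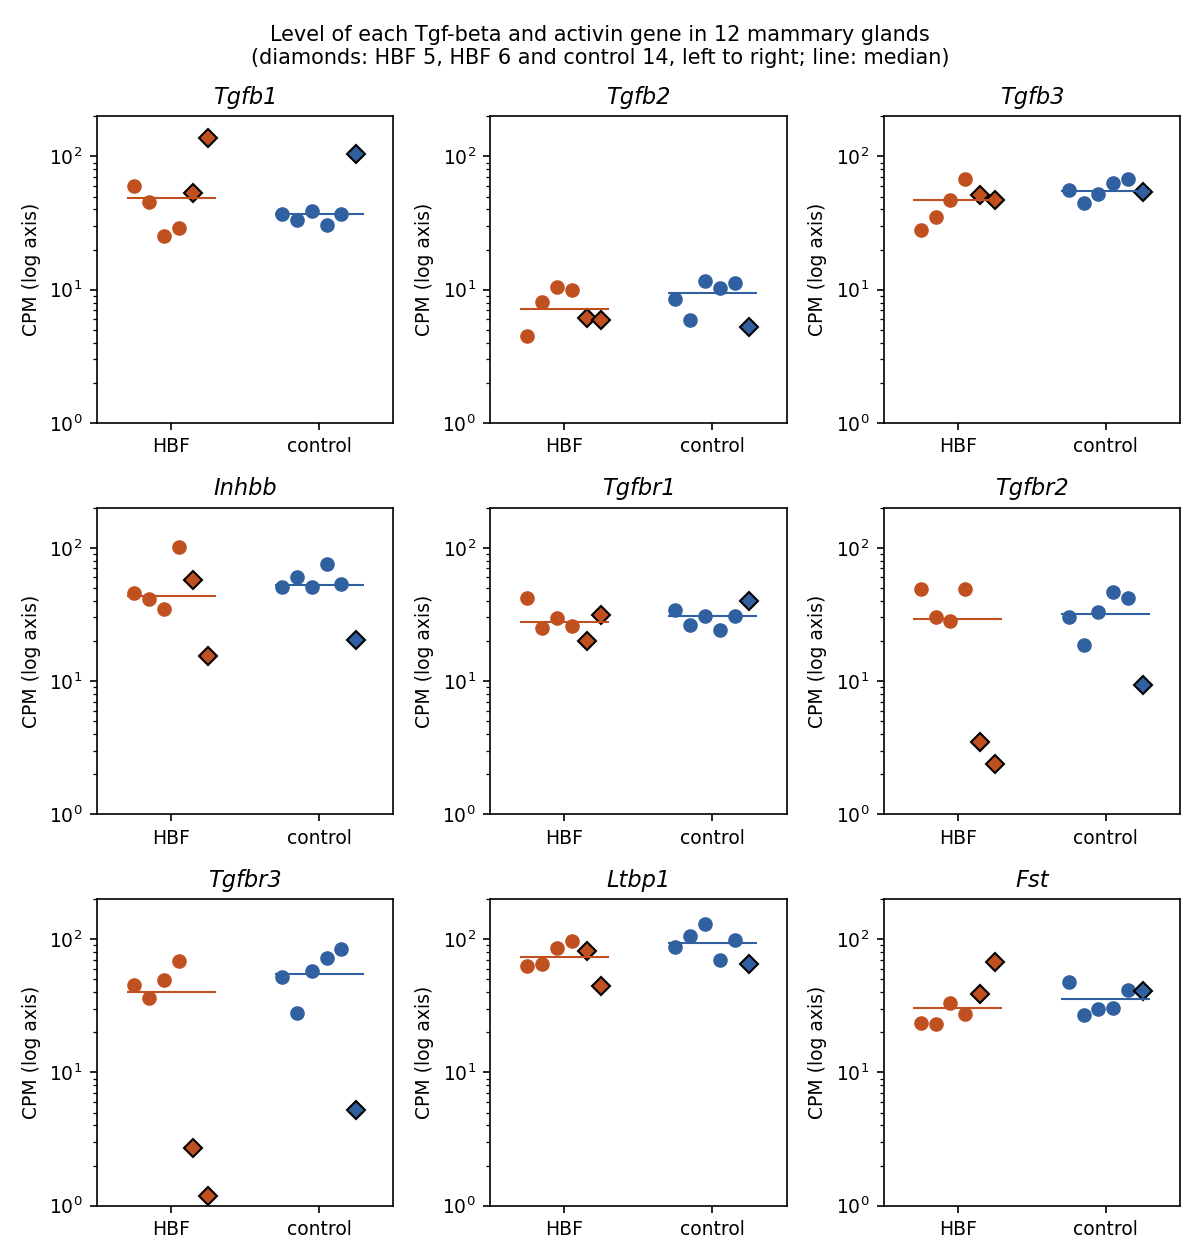
CPM of the 9 members with counts in each library on a log axis, by diet, with the median of each diet as a line and HBF 5, HBF 6 and control 14 as diamonds. Tgfbr2 and Tgfbr3 lay at or below 9.40 CPM in these 3 libraries and at or above 18.5 CPM in the other 9, and the diets overlapped in every panel.

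Tgfb1 (Entrez 59086), the ligand known as the main Tgf-beta of immune and stromal cells, had a lowest level of 25.3 CPM, a median of 49.0 CPM and a highest level of 137 CPM in the HBF group. In the control group the lowest level was 30.3 CPM, the median 37.0 CPM and the highest 105 CPM. The highest library of each diet was one with high lymphoid markers, HBF 6 and control 14, and without these the diets still overlapped. HBF 5, the other library set apart, was at 52.8 CPM, inside the range of the other 9 libraries, 25.3 to 60.1 CPM. HBF against control gave a log2 fold change of 0.31 (SE 0.43, 95% interval -0.61 to 1.23). It was 0.18 (SE 0.22) without the 3 libraries, -0.15 without HBF 6 alone and 0.75 without control 14 alone. The part of lymphoid cells in the level of Tgfb1 was not tested.

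Tgfb2 (Entrez 81809), the ligand that depends most on the co-receptor for binding, was read at low depth, with 11 to 28 counts per library. Its level in the HBF group was lowest at 4.50 CPM, had a median of 7.14 CPM and was highest at 10.5 CPM. In the control group these values were 5.22, 9.42 and 11.7 CPM. The low values came from both diets, HBF 1 and control 14, and the groups overlapped over most of their range. Between the diets the log2 fold change was -0.22 (SE 0.28, 95% interval -0.83 to 0.39).

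Tgfb3 (Entrez 25717), a ligand known for its rise in the involuting gland, ranged in the HBF group from 28.2 CPM over a median of 46.9 CPM to 67.7 CPM. In the control group it ranged from 44.5 CPM over a median of 55.3 CPM to 67.5 CPM. HBF 1 and HBF 2, at 28.2 and 35.0 CPM, lay below every control library, and the remaining HBF libraries lay within the control range or, in HBF 4, just above it. HBF 5, HBF 6 and control 14 were not set apart in this gene, at 51.3, 46.8 and 54.3 CPM. For Tgfb3 the log2 fold change was -0.29 (SE 0.19, 95% interval -0.71 to 0.13), and -0.34 (SE 0.22) without those 3 libraries. Tgfb3 was the only member to reach an unadjusted p under 0.05 in any fit that left out a library. This was without HBF 4, its highest HBF library, at 0.0309 (adjusted p = 0.966) in the quasi-likelihood test of edgeR. In that fit 389 of 9452 genes had an unadjusted p under 0.05.

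Inhbb (Entrez 25196) encodes the beta B chain, which forms activin B. In the HBF group it was lowest at 15.5 CPM, with a median of 43.4 CPM and a highest level of 102 CPM, and in the control group these were 20.5, 52.2 and 75.7 CPM. The lowest library of each diet was again HBF 6 or control 14, where the adipocyte and fibroblast sums were also lowest, while HBF 5 was at 57.5 CPM. HBF 4 held the highest level, and without the 3 libraries set apart the range was 34.6 to 102 CPM. Its log2 fold change was -0.07 (SE 0.38, 95% interval -0.89 to 0.75), and its sign changed in 4 of 22 alternative fits. Inhba (Entrez 29200), the beta A chain of activin A, had 0 counts in all 12 libraries, as did 2954 of the 16511 genes listed. By counting error alone, 0 counts allow a level of up to 0.945 to 1.30 CPM in a library taken by itself. Whether the annotation used for counting covered Inhba fully is not known.

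Tgfbr1 (Entrez 29591), the type I receptor kinase, ranged from 20.0 to 41.7 CPM over all 12 libraries, and its ratio of highest to lowest level, 2.08, was the smallest of the 9 members tested. In the HBF group its median was 27.8 CPM, with HBF 1 highest, and in the control group it ranged from 24.0 CPM over a median of 30.9 CPM to 40.0 CPM in control 14, and the diets overlapped. HBF 5 was the lowest of all libraries, whereas HBF 6 was at 31.4 CPM. For Tgfbr1 the log2 fold change was -0.10 (SE 0.19, 95% interval -0.52 to 0.31), and 0.06 (SE 0.17) without the 3 libraries.

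Tgfbr2 (Entrez 81810), the type II receptor that binds the ligand, differed far more between libraries than between diets. In the HBF group it was lowest at 2.38 CPM, had a median of 29.1 CPM and was highest at 49.1 CPM, and in the control group these were 9.40, 31.7 and 46.5 CPM. The low libraries were HBF 6 (6 counts, 2.38 CPM, 95% exact Poisson interval 0.874 to 5.18), HBF 5 (9 counts, 3.47 CPM, interval 1.59 to 6.59) and control 14 (27 counts, 9.40 CPM, interval 6.19 to 13.7). The other 9 libraries ranged from 18.5 to 49.1 CPM, where the diets overlapped. The log2 fold change was -0.15 (SE 0.62, 95% interval -1.48 to 1.18). Without the 3 libraries it was 0.20 (SE 0.25, interval -0.34 to 0.75), and it was also positive without HBF 5 alone (0.08), HBF 6 alone (0.09) or control 10 alone (0.03).

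Tgfbr3 (Entrez 29610), the co-receptor betaglycan that presents ligand to the type II receptor and also binds inhibin, followed the same libraries. Its HBF levels were lowest at 1.19 CPM, with a median of 40.4 CPM and a highest level of 69.2 CPM, and its control levels were 5.22, 54.8 and 85.1 CPM. HBF 6 had 3 counts, at the detection limit (1.19 CPM, 95% exact Poisson interval 0.246 to 3.48), HBF 5 had 7 counts (2.70 CPM, interval 1.09 to 5.56) and control 14 had 15 counts (5.22 CPM, interval 2.92 to 8.61). The lowest of the other 9 libraries, control 8, was at 28.0 CPM, and it was also the lowest of those 9 for Tgfbr2. The log2 fold change was -0.56 (SE 0.75, 95% interval -2.19 to 1.06), and -0.24 (SE 0.27, interval -0.82 to 0.35) without the 3 libraries. The biological coefficient of variation that edgeR fitted was 89.9% for Tgfbr3 and 73.3% for Tgfbr2, against a median of 28.6% over all genes tested, and it fell to 27.5% and 25.4% without the 3 libraries.

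The 3 libraries were the lowest of the 12 for 2 of the 9 members tested, Tgfbr2 and Tgfbr3, and for 15.9% of all genes tested (1488 genes), so this order was shared with many other genes. They were the highest for 0 of the 9 members and for 12.7% of all genes (1193 genes). HBF 5 had a lymphoid score (mean log2 CPM of the markers) of 1.34, inside the range of 0.31 to 4.46 of the other 9 libraries, and HBF 6 and control 14 had scores of 6.87 and 6.88. The share of ribosomal protein genes was above that of the other 9 libraries in all 3. So was the epithelial score, at 6.44 in HBF 5, 6.47 in HBF 6 and 6.56 in control 14, beside 3.84 to 6.21. The adipocyte score was below that of the other 9 in all 3, at 10.71, 9.06 and 9.28, beside 10.97 to 11.36. What part cell makeup or RNA quality had in the low receptor levels was not tested.

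**Figure D2:**
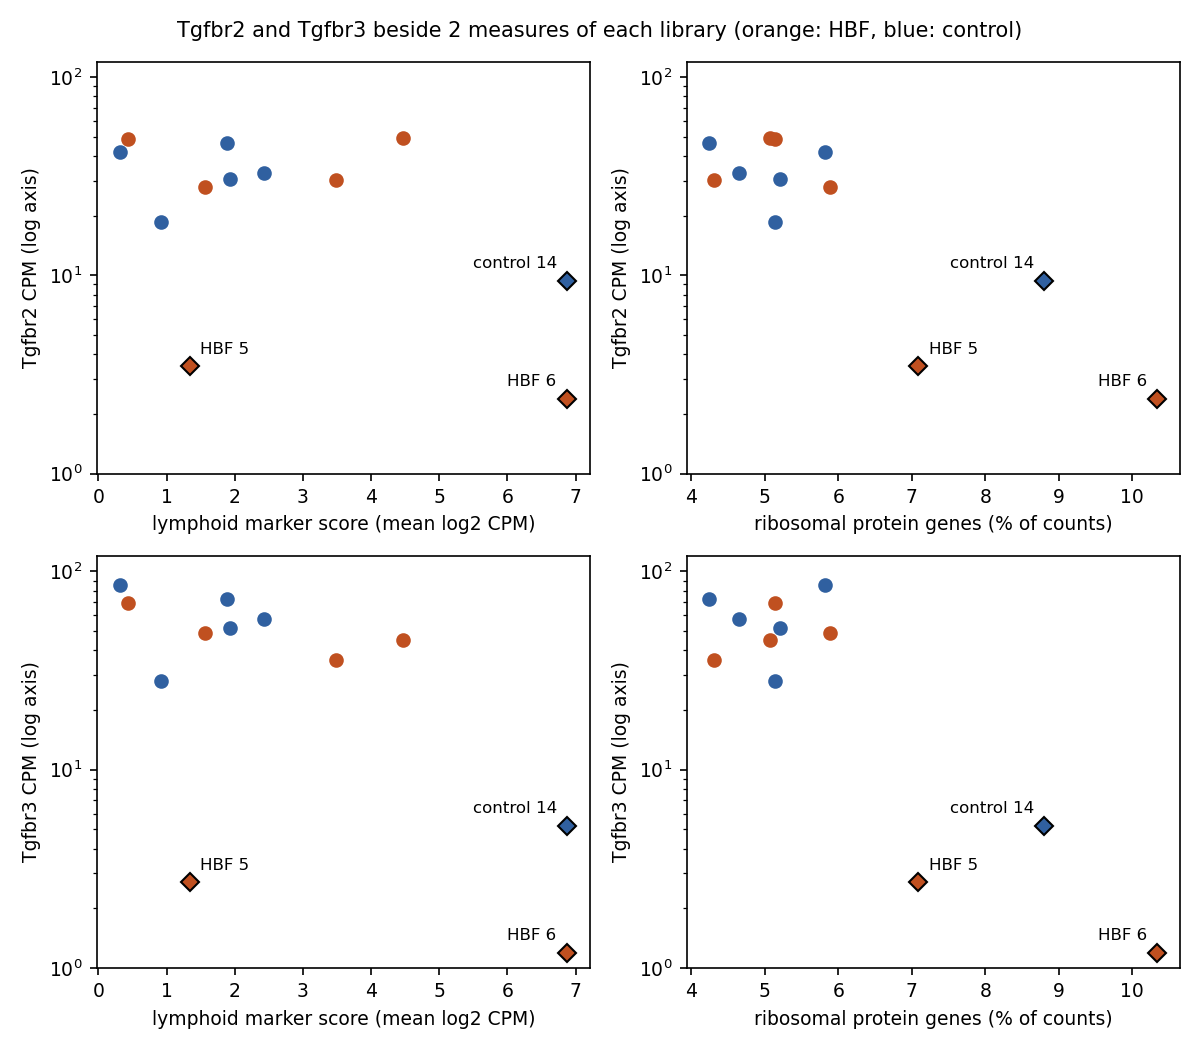
Tgfbr2 and Tgfbr3 CPM (log axis) in each library against the lymphoid marker score (left) and the percentage of counts on ribosomal protein genes (right), with HBF in orange, control in blue and the 3 libraries set apart as labelled diamonds. The 3 libraries lowest in both receptors had lymphoid scores of 1.34, 6.87 and 6.88 and ribosomal protein shares of 7.09% to 10.3%.

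Ltbp1 (Entrez 59107), which tethers latent Tgf-beta to the matrix, had its lowest HBF level at 44.8 CPM, its median at 73.5 CPM and its highest at 97.7 CPM. In the control group it was lowest at 65.1 CPM, with a median of 93.5 CPM and a highest level of 131 CPM. The lowest library of each diet was HBF 6 or control 14, whereas HBF 5 was at 81.7 CPM. HBF 1 and HBF 6 lay below every control library, and the other 4 HBF libraries lay within the control range. The log2 fold change was -0.35 (SE 0.21, 95% interval -0.80 to 0.10), with an unadjusted p of 0.118 and an adjusted p of 0.999 in the quasi-likelihood test of edgeR (Benjamini-Hochberg adjustment). It was -0.34 (SE 0.18, interval -0.73 to 0.06) without the 3 libraries.

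Fst (Entrez 24373), follistatin, which binds activins and keeps them from their receptors, ranged in the HBF group from 23.1 CPM over a median of 30.2 CPM to 67.1 CPM. In the control group it ranged from 26.8 CPM over a median of 35.5 CPM to 47.9 CPM. HBF 6 was the highest of all libraries, and HBF 5 at 38.6 CPM the next in its diet. The log2 fold change was -0.03 (SE 0.27, 95% interval -0.61 to 0.55), and its sign changed in 7 of 22 alternative fits. It was -0.40 (SE 0.19, interval -0.81 to 0.01) without the 3 libraries, where its unadjusted p was 0.0551 and its adjusted p 0.887 in the quasi-likelihood test of edgeR (Benjamini-Hochberg adjustment). In that fit 30 of the 41 markers tested were also negative, among them all of the epithelial, smooth muscle and myoepithelial, and fibroblast markers. The part of cell makeup in the level of Fst was not tested.

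**Figure D3:**
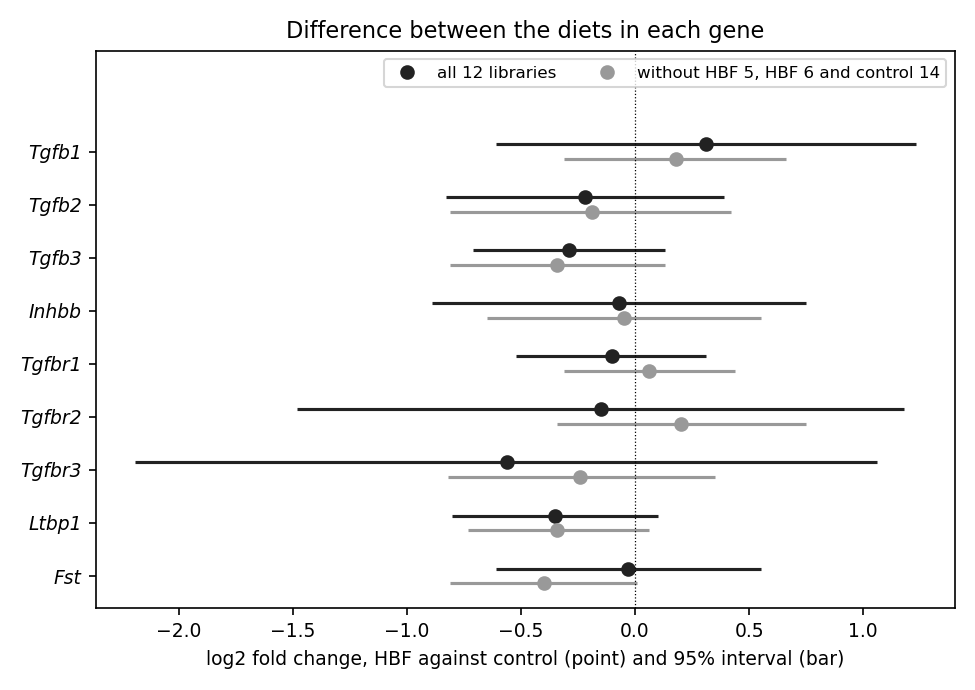
Log2 fold change of each tested member, HBF against control, with its 95% interval, for all 12 libraries (black) and without HBF 5, HBF 6 and control 14 (grey). Every interval includes 0, the interval of Tgfbr3 runs from -2.19 to 1.06 with all libraries and from -0.82 to 0.35 without the 3, and Tgfbr1 and Tgfbr2 change sign.

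Members were set beside the 8 marker scores over the libraries, which gave 72 relations. Over all 12 libraries 8 of these had an adjusted p under 0.05 (Pearson's r, two-sided permutation test, Benjamini-Hochberg adjustment over the 72), and 0 had one by Spearman's rho, with 27 and 13 at an unadjusted p under 0.05. The count of 8 fell to 0 without HBF 6, to 2 without control 14 and to 4 without control 8 or control 11, and it rose to 19 when values were centered on the mean of each diet. Since the 3 libraries set apart lie far from the others, no coefficient of a member with a marker score over all 12 libraries is given. Over the other 9 libraries 0 of the 72 relations had an adjusted p under 0.05 by r or by rho (two-sided exact permutation test), with 9 and 7 at an unadjusted p under 0.05.

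Values of the 9 libraries were not centered on the diets, so r can hold a difference between the diets as well as variation within them. Over those 9 libraries, Tgfb3 gave the relations with the smallest p. With the smooth muscle and myoepithelial score r was 0.85 (exact permutation p = 0.0039, adjusted p = 0.12) and rho was 0.85 (exact permutation p = 0.00607, adjusted p = 0.367), and r was 0.78 without control 11 and HBF 2, the libraries farthest from the median score. With the epithelial score r was 0.83 (exact permutation p = 0.00498, adjusted p = 0.12) and rho was 0.80 (exact permutation p = 0.0138, adjusted p = 0.367). Leaving out HBF 1 and HBF 3 gave r = 0.71. With the lymphoid score r was -0.85 (exact permutation p = 0.00434, adjusted p = 0.12) and rho was -0.72 (exact permutation p = 0.0369, adjusted p = 0.379). That relation rested on HBF 1 and HBF 2, since r was -0.39 without them. Tgfb1 ran the other way against the lymphoid score, with r = 0.77 (exact permutation p = 0.0148, adjusted p = 0.194) and rho = 0.75 (exact permutation p = 0.0255, adjusted p = 0.367), and r = 0.18 without the same libraries. Fst followed the smooth muscle and myoepithelial score, with r = 0.78 (exact permutation p = 0.0124, adjusted p = 0.194), rho = 0.75 (exact permutation p = 0.0255, adjusted p = 0.367) and r = 0.63 without control 11 and HBF 2.

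The other 4 of the 9 relations with an unadjusted p under 0.05 were those of Tgfbr1 and Ltbp1. Tgfbr1 fell with the adipocyte score, with r = -0.76 (exact permutation p = 0.0162, adjusted p = 0.194), rho = -0.73 (exact permutation p = 0.0311, adjusted p = 0.373) and r = -0.60 without HBF 2 and HBF 1. Ltbp1 rose with the fibroblast score, with r = 0.75 (exact permutation p = 0.0194, adjusted p = 0.199), rho = 0.65 (exact permutation p = 0.0666, adjusted p = 0.386) and r = 0.40 without HBF 2 and control 9. With the endothelial score Ltbp1 gave r = 0.74 (exact permutation p = 0.0226, adjusted p = 0.203), rho = 0.63 (exact permutation p = 0.076, adjusted p = 0.386) and r = 0.53 without control 9 and control 11. With the skeletal muscle score it gave r = 0.71 (exact permutation p = 0.034, adjusted p = 0.272), rho = 0.67 (exact permutation p = 0.0589, adjusted p = 0.386) and r = 0.70 without control 10 and control 11. None of the 9 passed the adjusted threshold.

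**Figure D4:**
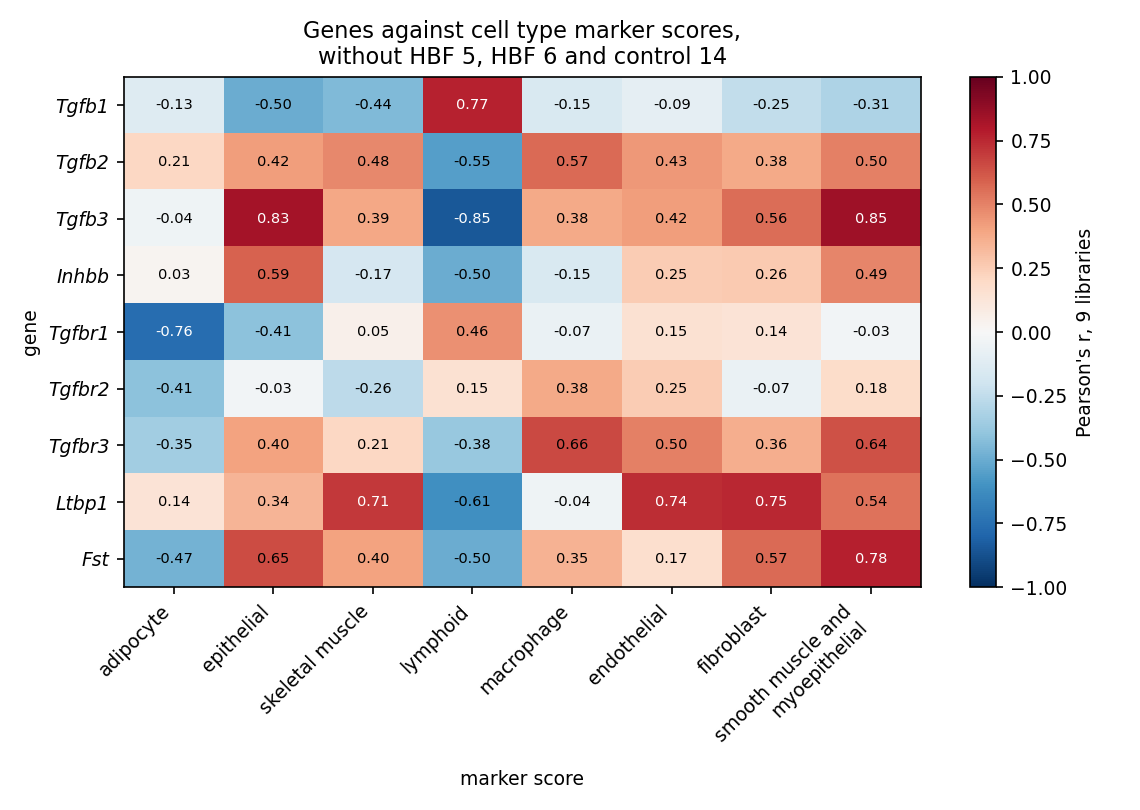
Pearson's r between the log2 CPM of each tested member and each marker score over the 9 libraries without HBF 5, HBF 6 and control 14. The values run from -0.85 (Tgfb3 and the lymphoid score) to 0.85 (Tgfb3 and the smooth muscle and myoepithelial score), and none passed the adjusted threshold.

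The genes most like each member were those with the highest Pearson's r to its log2 CPM over the 12 libraries, given as a description with r over the 9 libraries beside it, since the 3 libraries set apart weigh on the former. For Tgfbr3 they were Aff4, Cald1 and Tns1 (r = 0.991, 0.989 and 0.989), and for Tgfbr2 Stat5b, Atf2 and Dgcr2 (r = 0.993, 0.990 and 0.987). Without the 3 libraries set apart these values were 0.830, 0.803 and 0.912 for Tgfbr3 and 0.962, 0.937 and 0.933 for Tgfbr2. As many as 638 genes had r over 0.9 with Tgfbr3 and 525 with Tgfbr2 over the 12 libraries. Tgfb1 was most like Bcl2a1, Nup214 and Mvp (r = 0.983, 0.981 and 0.979, and 0.949, 0.921 and 0.954 over 9 libraries), among 306 genes with r over 0.9. Inhbb was most like Ctps2, Tpp1 and Wipi1 (r = 0.945, 0.936 and 0.927, and 0.952, 0.857 and 0.730 over 9 libraries), among 22 such genes. The other members had few close genes. Tgfb3 was most like Tbc1d9, Myof and Ace (r = 0.960, 0.878 and 0.876, and 0.968, 0.916 and 0.887 over 9 libraries). Tgfb2 was most like Stam, Fbxo3 and Map4 (r = 0.944, 0.898 and 0.871, and 0.926, 0.931 and 0.835). Tgfbr1 was most like Phf12, Cpsf6 and Ercc5 (r = 0.892, 0.886 and 0.871), and these fell to 0.796, 0.778 and 0.758 over 9 libraries. Ltbp1 was closest to C1r, Plat and Abcg1 (r = 0.919, 0.901 and 0.894, and 0.847, 0.816 and 0.814). Fst was closest to H3f3b, Cyp4b1 and Rab20 (r = 0.923, 0.920 and 0.914, and 0.892, 0.873 and 0.828).

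Beyond the members, a list of 46 further genes of the pathway was examined, of which 40 were analysed and 28 passed the filter. In the diet comparison 0 of the 28 passed the adjusted threshold in the quasi-likelihood test of edgeR, and 0 had an unadjusted p under 0.05, where 2.34% of all genes did. Negative log2 fold changes were seen in 22 and positive ones in 6, with a median of -0.14. Over all 9382 genes 4688 were negative, with a median of 0.000184. Genes that are low in the same libraries are not independent in sign, and these counts of signs were not tested. Of the 28, 8 were lowest in the 3 libraries set apart, beside 15.9% of all genes tested, and 1, Acvrl1, was highest in them, beside 12.7%. Without these libraries 29 genes passed the filter, 22 negative and 7 positive, of which 1 (Postn) had an unadjusted p under 0.05, beside 5.37% of all genes in that fit, and 0 an adjusted one. The median log2 fold change in that fit was -0.143 for the 29 and 0.00861 over all genes. The directions were not all kept, since Acvrl1 turned negative and Smad2 and Smad3 turned positive, among others.

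Among the other receptors, 4 of 6 genes were tested. Acvrl1, a type I receptor of endothelial cells, had 111 ± 57.3 CPM (SD, n = 6) in the HBF group and 102 ± 28.1 CPM (SD, n = 6) in the control group, with 219 CPM in HBF 6. Its log2 fold change was 0.12 (SE 0.29), and -0.18 without the 3 libraries. Acvr2a, a type II receptor for activin, had 8.38 ± 5.15 CPM (SD, n = 6) and 12.8 ± 4.92 CPM (SD, n = 6), a log2 fold change of -0.60 (SE 0.44), and -0.38 without the 3 libraries. It was at 2.70, 3.17 and 3.83 CPM in HBF 5, HBF 6 and control 14 and at 6.83 CPM or more elsewhere. Acvr1, another type I receptor, had no counts in HBF 6, 2.70 CPM in HBF 5 and 2.09 CPM in control 14, and 7.77 to 18.5 CPM in the other 9 libraries, with a log2 fold change of -0.74 (SE 0.61), and -0.48 without the 3. None of the 6 other ligand genes passed the filter. Inha, the inhibin alpha chain, had a mean of 3.26 CPM and its highest level of 12.3 CPM in HBF 6, and Gdf15 had a mean of 0.847 CPM from 26 counts over all libraries, with its highest level of 1.93 CPM in HBF 5.

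Of the intracellular transducers and inhibitors, 8 of 8 analysed genes were tested, 7 with a negative and 1 with a positive log2 fold change, and 5 were lowest in the 3 libraries. Without the 3 libraries 4 of these genes were negative and 4 positive. Smurf2, a ubiquitin ligase that acts on the receptors and Smads, had 49.6 ± 18.7 CPM (SD, n = 6) in the HBF group and 62.6 ± 13.3 CPM (SD, n = 6) in the control group. Its relative Smurf1 had 28.8 ± 7.23 CPM (SD, n = 6) and 37.3 ± 5.73 CPM (SD, n = 6), a log2 fold change of -0.38 (SE 0.19, 95% interval -0.78 to 0.03), and -0.18 without the 3 libraries. Smad2, which the receptor phosphorylates, was at 34.2 ± 8.86 CPM (SD, n = 6) and 36.7 ± 5.25 CPM (SD, n = 6). Smad3 and Smad4 were named after their values were seen. Smad3, the other Tgf-beta receptor substrate, had no counts in HBF 6, 2 counts in HBF 5, fewer than taken as detectable, and 2.09 CPM in control 14, beside 4.70 to 9.60 CPM in the other 9 libraries. Smad4, the shared partner of the receptor Smads, was at 3.17, 3.08 and 8.35 CPM in these libraries and between 18.9 and 32.1 CPM in the others.

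Latent complex and matrix genes (6 of 8 analysed genes tested) included Fbn1, the fibrillin that Ltbp proteins bind. It was at 28.2 CPM in HBF 6, 75.2 CPM in control 14 and 179 CPM in HBF 5, beside 325 to 540 CPM in the other 9 libraries, with a log2 fold change of -0.34 (SE 0.54), and -0.14 without the 3. Ltbp3, which binds latent Tgf-beta like Ltbp1, had 126 ± 20.8 CPM (SD, n = 6) in the HBF group and 128 ± 16.3 CPM (SD, n = 6) in the control group. Lrrc32, which holds latent Tgf-beta on the cell surface, had 23.1 ± 7.07 and 28.0 ± 8.62 CPM (SD, n = 6 each). Of the extracellular antagonists, Vasn had a log2 fold change of -0.01 (SE 0.20) and Bambi, a decoy receptor at a mean of 3.55 CPM, one of -0.48 (SE 0.31), and without the 3 libraries these were -0.09 and -0.51.

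Of the target genes of Tgf-beta 8 of 9 were tested, 3 with a positive and 5 with a negative log2 fold change. Postn, a matrix protein gene, had 2660 ± 440 CPM (SD, n = 6) in the HBF group and 3080 ± 920 CPM (SD, n = 6) in the control group. Its log2 fold change was -0.21 (SE 0.24), and -0.40 without the 3 libraries. Fn1, fibronectin, had 1240 ± 288 CPM (SD, n = 6) and 1410 ± 383 CPM (SD, n = 6). Pmepa1, a feedback inhibitor, had a log2 fold change of -0.68 (SE 0.42, 95% interval -1.59 to 0.24), and -0.63 without the 3 libraries. None of the 8 target genes had HBF 5, HBF 6 and control 14 as its 3 lowest libraries.

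**Figure D5:**
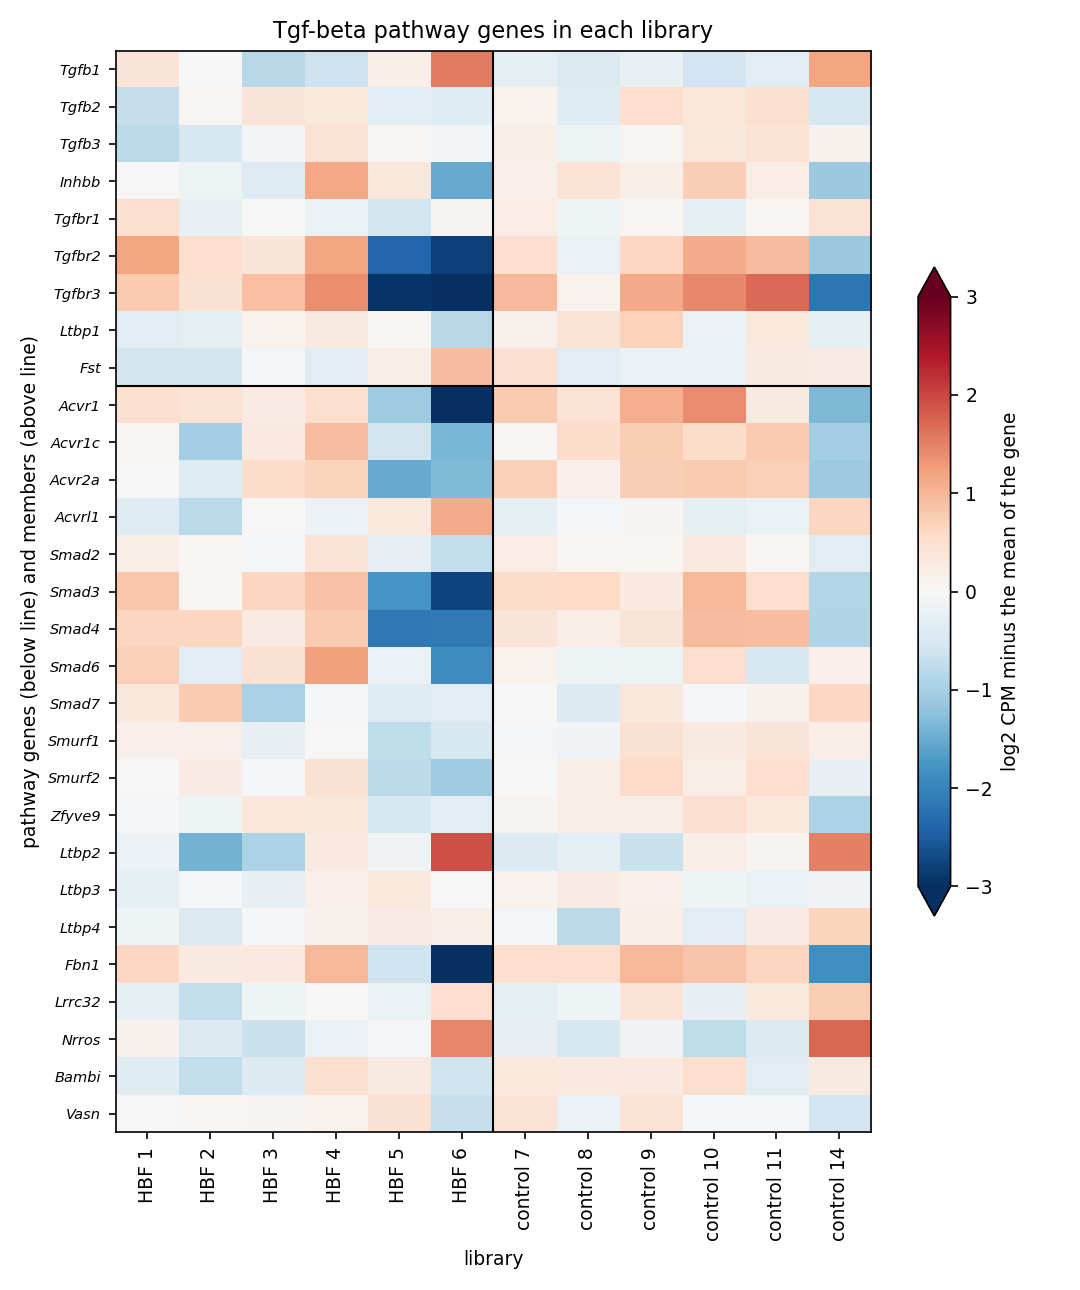
Log2 CPM of each tested gene in each library minus the mean of that gene over the 12 libraries, with the 9 members above the horizontal line, 20 further pathway genes other than target genes below it, the diets divided by the vertical line and a color scale that ends at 3 and -3. Low values of Tgfbr2, Tgfbr3, Smad3, Smad4, Acvr1 and Fbn1 stand in the columns of HBF 5, HBF 6 and control 14, and no gene shown separates the diets.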

How the data were processed

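The authors deposited raw read counts per gene for 12 libraries, listed by Entrez identifier and not normalized. The submitters' processing notes name bcl2fastq, CASAVA 1.8, TopHat, DESeq and the rn4 build. The counting program, its annotation and the use of strand are not given in the sources used here. Groups were taken from the diet in the labels and library numbers from the titles. Symbols came from the RefSeq gene table of GRCr8 (16351 of 16511 identifiers matched), and only the promoter locations are given on that assembly.

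The diets were compared by the quasi-likelihood test of edgeR 4.0.16 (R 4.3.3) after TMM scaling and filterByExpr, with Benjamini-Hochberg adjustment over 9382 genes and a threshold of 0.05. Alternatives were DESeq2 1.42.0, limma 3.58.1 (voom with sample quality weights), DESeq2's size factors, upper-quartile factors, no filter, a filter of at least 10 counts per library, the lymphoid, epithelial or skeletal muscle score as a covariate, and leaving out each library in turn. Leaving out HBF 5, HBF 6 and control 14 together, and the share of ribosomal protein genes (92 genes), were chosen after seeing the data. Marker scores were the mean log2 CPM of a list (prior count 2, alternatively 0.5). Relations were tested with 100000 resamples, or exactly for 9 libraries, in Python 3.11.15. Procedures were tested on simulated data.

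The members and the lists were chosen with earlier results of these data known. Named genes are all 10 members, in each role group of the pathway list the 2 with the highest mean CPM and the 2 with the smallest p, the 3 genes most like each tested member, and the gene of each marker list with the highest mean CPM, and 1 gene that this rule names is not reported here. Smad3, Smad4 and markers with no counts in a library were named outside this rule, after their values were seen. Krt5, Cd79a, Kdr, Acta2, Eng, Gdf11, Ski, Skil, Itgav and Thbs1 were not analysed here, and Mylpf was matched as Myl11.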

Additional observations from a re-analysis of the deposited data

Results flagged for a closer look

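In each diet group of 6 libraries, the gap from the highest or lowest library to its nearest neighbor was divided by the range of the group and compared with Dixon's critical value for 6 values. Of 38 groups, 10 exceeded it, where chance gives about 1 in 20 groups, or 1.9 here.

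Tgfb1 was at 137 CPM in HBF 6, with 60.1 CPM in the next HBF library, and at 105 CPM in control 14, with 39.0 CPM in the next control library. Fst was at 67.1 CPM in HBF 6, with 38.6 CPM next. The adipocyte score was 9.06 in HBF 6 (next 10.71) and 9.28 in control 14 (next 10.98). In control 14 the lymphoid score was 6.88 (next 2.43), the fibroblast score 9.99 (next 11.02) and the share of ribosomal protein genes 8.80% (next 5.82%). Total counts were 2320267 in HBF 1 (next 2629159) and 2944680 in control 7 (next 2570080).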

How the results depend on the processing

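No gene of the whole table had an adjusted p under 0.05 in edgeR's test, in DESeq2, in limma-voom, under the other alternatives or in any fit without a library (0 genes in each). At an unadjusted p under 0.05 the alternatives that kept all libraries gave 182 to 789 genes and, without HBF 5, HBF 6 and control 14, 509 genes. Leaving out each library in turn moved this count from 220 to between 135 (without HBF 5) and 587 (without control 14). The number of members with an unadjusted p under 0.05 was 0 in every alternative, and 0 to 1 when each library was left out in turn.

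The log2 fold changes of Tgfb2, Tgfb3, Tgfbr3 and Ltbp1 kept their direction in all fits made, but not their size. With each library left out in turn, Tgfb2 ranged from -0.34 (without HBF 3) to -0.11 (without HBF 1), Tgfb3 from -0.43 (without HBF 4) to -0.18 (without HBF 1), Tgfbr3 from -0.90 (without HBF 4) to -0.31 (without HBF 6) and Ltbp1 from -0.45 (without HBF 4) to -0.23 (without control 9). With the lymphoid score as a covariate the value of Inhbb became 0.04 and that of Tgfbr2 0.04, and with the epithelial score that of Fst became 0.13. The epithelial score also moved Tgfbr2 from -0.15 to -0.72, Tgfbr3 from -0.56 to -1.07, Tgfb1 from 0.31 to 0.52 and Tgfbr1 from -0.10 to -0.17. The lymphoid score moved Tgfb1 to 0.08, Tgfbr1 to -0.16, Tgfbr3 to -0.21 and Fst from -0.03 to -0.12, and the skeletal muscle score moved Fst to -0.18. In limma-voom Tgfb1 was 0.09, Tgfbr1 -0.05, Inhbb -0.20 (from -0.07) and Fst -0.36. Without the 3 libraries Tgfbr1 became 0.06, Tgfbr2 0.20, Tgfbr3 -0.24 and Fst -0.40. When each library was left out, the values ranged from -0.15 (without HBF 6) to 0.75 (without control 14) for Tgfb1, from -0.42 (without HBF 4) to 0.12 (without HBF 6) for Inhbb, from -0.24 (without HBF 1) to 0.00 (without control 14) for Tgfbr1, from -0.41 (without HBF 4) to 0.09 (without HBF 6) for Tgfbr2 and from -0.32 (without HBF 6) to 0.07 (without HBF 2 or control 7) for Fst. The causes were not tested. Tgfbr2 and Tgfbr3 did not pass the filter of at least 10 counts per library.

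The number of relations past the adjusted threshold was 8 with all libraries, 8 with a prior count of 0.5, 7 with DESeq2's size factors, 19 when centered on the diet means and 0 without the 3 libraries, and it ranged from 0 to 11 when each library was left out.

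No paired analysis was possible, since no library number occurs in both diets. With at most 2944680 counts per library, levels from fewer than 3 counts were not taken as detected, and 3 counts of Tgfbr3 in HBF 6 leave its level uncertain.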
